A study of Mus musculus with 107 samples.

Results

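Levels of 10 smooth muscle contractile genes (*Acta2*, *Actg2*, *Tagln*, *Cnn1*, *Cald1*, *Myl9*, *Myh11*, *Tpm1*, *Tpm2* and *Lmod1*) were followed in ribosome-bound RNA of mouse neural progenitor cells (NPC), their cultures and their grafts. The 10 genes were chosen by symbol, as proteins of the smooth muscle contractile apparatus, and each was matched to 1 Entrez identifier among the 27179 genes counted. The libraries of the series fall into 23 groups. All cultured and grafted cells came from 1 female mouse embryonic stem cell (ESC) line that carries the RiboTag allele, an HA tag on ribosomal protein Rpl22, switched on in every cell by *Sox2*-cre, so that RNA on tagged ribosomes can be pulled down from a mixed tissue. In SPONT cultures (n = 4) NPC were differentiated for 4 days by lowering EGF and FGF from 100 to 1 ng/ml, and this medium was the base of every other differentiation group. Fetal bovine serum (FBS) was added to it at 1, 5, 10 or 20% by volume (n = 4 each), CNTF, a cytokine that drives astrocyte maturation, at 100 ng/ml without serum (n = 4) or with 5% FBS (n = 4), and IGF-1 at 100 ng/ml (n = 4). NPC were also grafted into the spinal cord of young adult C57BL/6 mice, either uninjured or injured by severe crush at thoracic level 10 (SCI) or by a double crush (dSCI) that leaves a larger lesion core. Grafts were placed 2 days after injury, and their RNA was recovered at 5 d (SCI, n = 5) or at 14 d (SCI, uninjured and dSCI, n = 5 each). The days are counted from the injury in the series' design text and from transplantation in the study's methods. Host astrocytes were sampled with the same tag under the 73.12 *Gfap*-Cre driver, from healthy cord (n = 9) and 14 d after crush (n = 5). The other groups are ESC (n = 4), undifferentiated NPC of 3 passages and 3 derivations (n = 4 each, NPC P15 D2 n = 6), and NPC passed through a pipette (n = 5 each). The latter were passed in medium, in DCH, a hydrogel, or in DCH after being kept in it for 4 h.

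Smooth muscle contracts when myosin II filaments pull on actin filaments. *Acta2* and *Actg2* encode the smooth muscle actins, *Myh11* the smooth muscle myosin heavy chain and *Myl9* a regulatory light chain that myosin light chain kinase (*Mylk*) phosphorylates. Tropomyosins (*Tpm1*, *Tpm2*) lie along the actin filament, calponin 1 (*Cnn1*) and caldesmon (*Cald1*) bind it and restrain myosin, transgelin (*Tagln*, SM22-alpha) bundles it and leiomodin 1 (*Lmod1*) nucleates it. *Tpm1*, *Cald1* and *Myl9* are also used by non-muscle cells, and counts per gene do not separate their isoforms. Many of these genes are textbook targets of serum response factor (SRF), which binds the CArG box with the coactivators myocardin (*Myocd*) and the MRTFs. The same genes are turned on in myofibroblasts, the contractile cells of scars, whose best known marker is *Acta2*.

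The promoters of the members are shown because SRF and TEAD sites are sequence features for which smooth muscle genes are known. Whether such sites bear on the values below was not tested. RefSeq promoter windows (GRCm38.p6, 250 bases before to 50 after the start of transcription) matched 7 of the 10 members in 8 windows, the members not matched being *Tagln*, *Myh11* and *Actg2*. A CArG box was read as CC, 6 inner bases and GG, a pattern that covers both strands at once. With all 6 inner bases A or T it was found in 1.63% of 32851 windows, among them that of *Myl9*, and with at most 1 inner G or C in 9.98%, among them those of *Acta2* and *Myl9*. The TEAD core CATTCC was found on either strand in 14.7% of windows, among them those of *Acta2*, *Tpm1*, *Cald1* and *Lmod1*. The windows of *Cnn1* and *Tpm2* held neither motif. Each match is a description of letters in this window, not a measured site. Below, 30 bases around each match are given 5′ to 3′ on the strand of the gene. Capitals mark the CArG box in the first 4 lines, and in the last 4 GGAATG, which is CATTCC read from the other strand.
*Acta2*, 84 bases before the start, chr19:34255438-34255467, minus strand: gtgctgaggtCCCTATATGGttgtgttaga
*Acta2*, 34 bases before the start, chr19:34255388-34255417, minus strand: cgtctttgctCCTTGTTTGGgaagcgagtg
*Myl9*, 161 bases before the start, chr2:156775293-156775322, plus strand: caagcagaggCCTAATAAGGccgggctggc
*Myl9*, 99 bases before the start, chr2:156775355-156775384, plus strand: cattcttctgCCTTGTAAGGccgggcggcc
*Acta2*, 146 bases before the start, chr19:34255502-34255531, minus strand: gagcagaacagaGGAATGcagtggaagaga
*Tpm1*, 56 bases before the start, chr9:67049252-67049281, minus strand: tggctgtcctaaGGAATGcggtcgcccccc
*Cald1*, 153 bases before the start, chr6:34598339-34598368, plus strand: gagcatgcctagGGAATGacaggcatctgc
*Lmod1*, 130 bases before the start, chr1:135324671-135324700, plus strand: ccaagattccctGGAATGtcctcaagtttc

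The deposited counts summed to 30473157–147764968 in the 96 paired-read libraries and to 12286240–18085106 in the 11 single-read libraries, which are those of the 5 d grafts and of NPC P15 D2. Both mates of a pair were counted in the former. CPM below stands for counts scaled to the total of each library. Of the markers, *Pou5f1*, *Nanog*, *Nes* and *Gfap* followed the labels, and *Sox2* and *Fabp7* did not. ESC held 908 CPM of *Pou5f1* and 346.9 of *Nanog*, NPC P15 1458 of *Nes* and 335.9 of *Sox2*, and SPONT 7880 of *Gfap*. Host astrocytes of healthy cord held 21064 CPM of *Gfap* and 2719 of *Aqp4*, and the 4 graft groups 6800–14283 of *Gfap*. The labels do not say that replicates came from separate cultures, and p-values measure the spread between these libraries. In bulk libraries, fewer cells of a type and less RNA per cell cannot be told apart.

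Most members were low before differentiation, and 7 of the 10 had their highest mean in 20% FBS, the exceptions being *Tpm2* (ESC), *Actg2* (5 d grafts) and *Myh11* (grafts in uninjured cord). *Acta2* had its highest mean in 20% FBS (2503 ± 399 CPM, SD, n = 4) and then in 10% FBS (802 ± 185). The 5 d grafts (311 ± 217, n = 5) and 5% FBS (248 ± 53.6) followed, and their libraries overlapped. The grafts in dSCI (69.9 ± 16.3), CNTF with 5% FBS (64.3 ± 6.47), the grafts in uninjured cord (47.5 ± 34.2), the 14 d grafts in SCI (32.7 ± 14.3) and 1% FBS (20.7 ± 13.7) came next, with libraries that overlapped from one group to the next. Host astrocytes after SCI held 12.2 ± 2.76 CPM, above all libraries of healthy host astrocytes (2.19 ± 0.930). ESC held 4.51 ± 0.737, and the other 12 groups had means of 0.253–2.27 CPM. The smallest mean was that of NPC passed through a pipette in medium. ESC, which are grown in medium with FBS, also had the highest mean of *Tpm2* (46.9 ± 1.78 CPM), and *Tpm2* was at 1.54 ± 0.852 in NPC P15. Whether that serum bears on the ESC values was not tested. *Lmod1* had means of no more than 0.244 CPM in the undifferentiated NPC and pipette groups and at 2.86 ± 0.424 in SPONT. *Myl9* had group means of 0.740–12.2 CPM in NPC and was at 52.9 ± 6.68 in SPONT. *Tpm1* and *Cald1* were read in every group, with means of at least 73.3 and 23.1 CPM. IGF-1 cultures were not tested against SPONT. They held *Acta2* at 1.26 ± 0.0642 CPM and *Tagln* at 1.12 ± 0.0995.

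**Figure D1:**
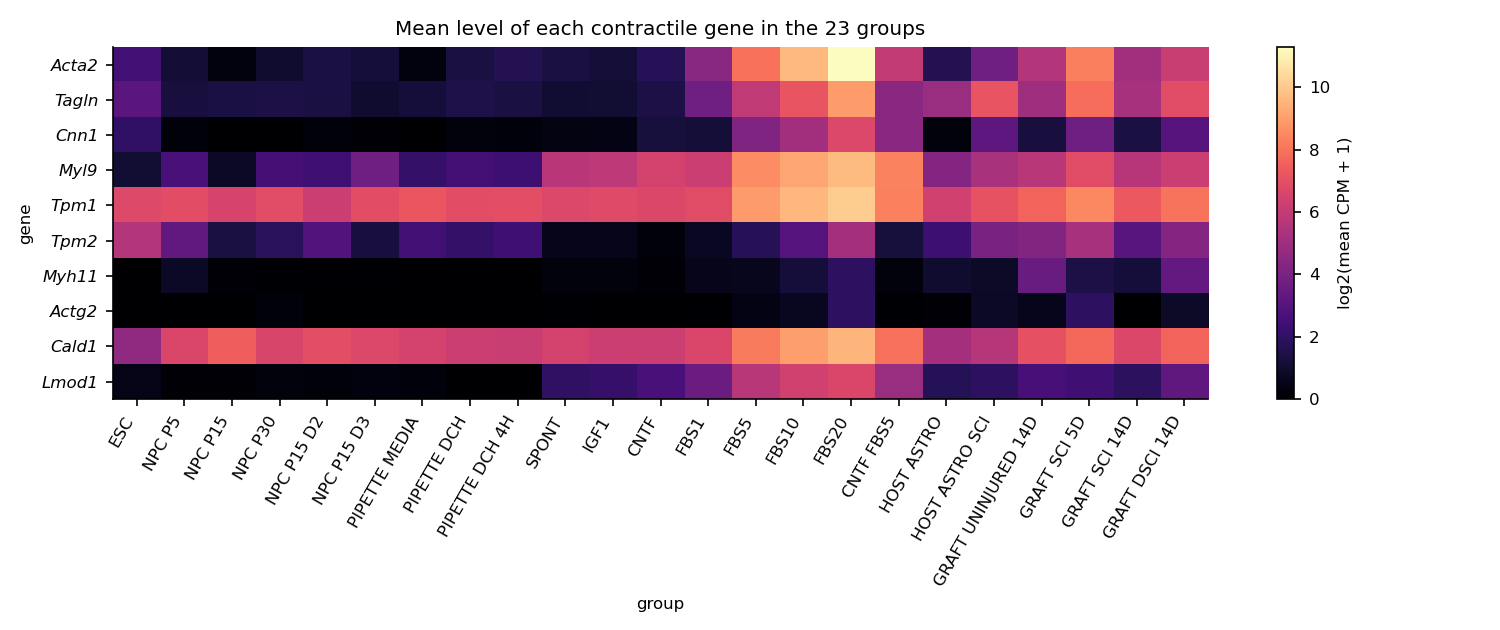
Mean level of each of the 10 genes (rows) in the 23 groups (columns), as colour on a log2(mean CPM + 1) scale. The brightest column is 20% FBS, where *Acta2* averaged 2503 CPM, while the rows of *Tpm1* and *Cald1* are bright in every group and those of *Actg2* and *Myh11* dark in most.

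The 10 genes rose with the concentration of serum. The question of the dose series is at which concentration each gene starts to respond and how steeply. All 10 group means rose at each step from SPONT through 1, 5, 10 and 20% FBS. The members' summed level went from 252 ± 8.92 CPM in SPONT to 333 ± 44.7, 1532 ± 201, 2955 ± 405 and 5931 ± 588 CPM. Each group was compared with SPONT by edgeR quasi-likelihood F tests with Benjamini-Hochberg adjustment over all genes tested, and a gene was called at an adjusted p below 0.01. In 1% FBS 5 of the 9 members tested were higher and none lower, where 5.63% of 14938 genes were called higher and 3.15% lower. In 5% FBS every tested member other than *Myh11* was higher (19.2% higher and 14.9% lower among all genes). In 10% FBS every member other than *Actg2* and *Myh11* was higher (24.2% and 20.8%), and so again in 20% FBS (27.6% and 27.9%). The median log2FC of the tested members was 1.16, 2.84, 3.91 and 5.55 at the 4 concentrations, beside -0.0029, -0.014, -0.0063 and -0.033 for all genes tested. *Actg2* had too few counts to be tested at 1 and 5%. It passed the filter on low counts at 10 and 20% through its serum libraries alone, which fixes its direction. Its calls are therefore left out above, but the medians at 10 and 20% hold it. Without *Actg2* the middle value was that of *Tpm2* (3.91) in 10% and of *Lmod1* (5.08) in 20% FBS. *Myh11*, with 9–23 counts per SPONT library, also needed its serum libraries to pass the filter, which fixes the direction of its calls. They are left out above as well, and all 4 medians hold *Myh11*. With a minimum count of 50, 8 of 8 tested members were higher in 5% FBS. All 4 comparisons share the SPONT libraries.

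**Figure D2:**
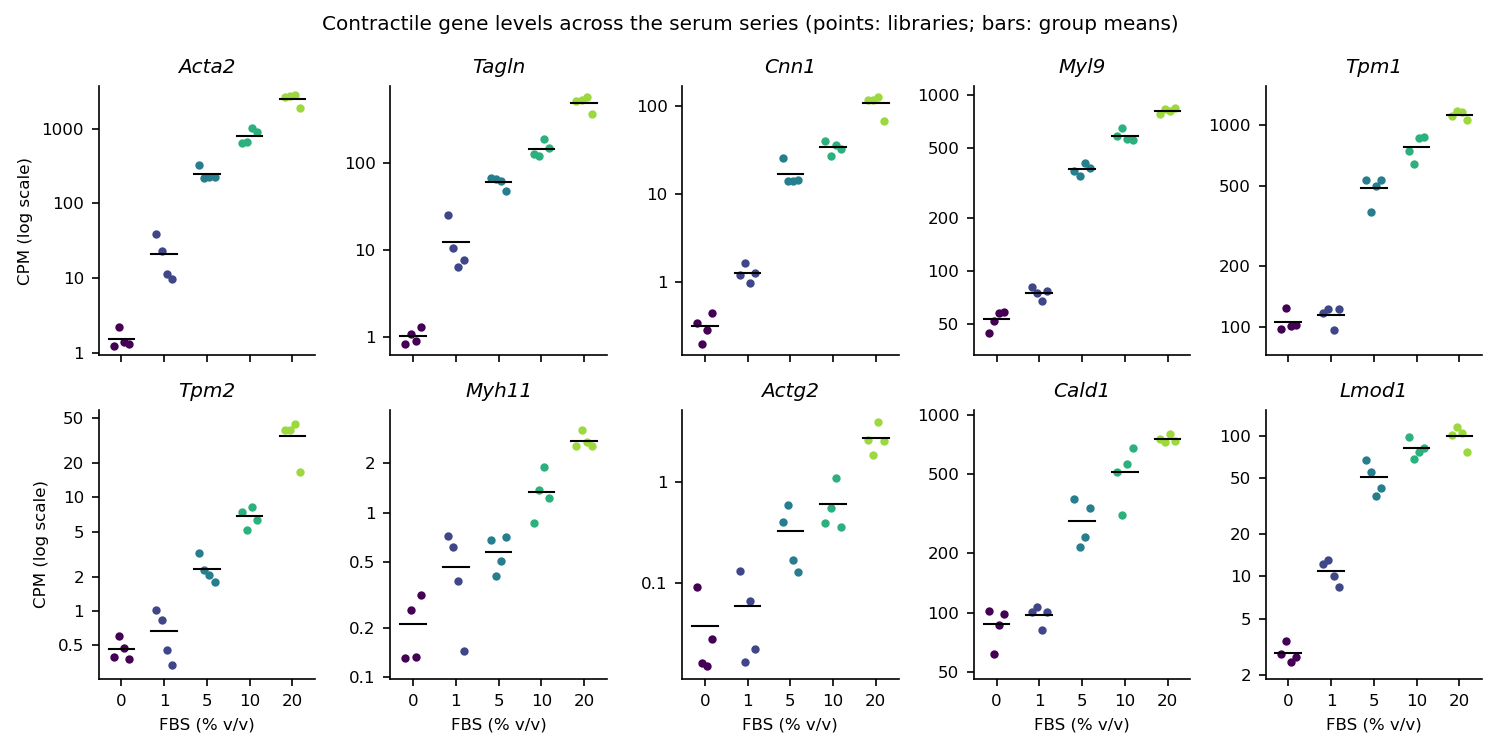
CPM on a log scale (y axis) against the FBS concentration (x axis, 0% being SPONT) for each gene, with 1 point per library and a bar at the mean of 4. *Acta2*, *Tagln*, *Cnn1*, *Myl9* and *Lmod1* leave the SPONT range at 1% FBS, *Tpm1*, *Tpm2*, *Cald1*, *Myh11* and *Actg2* at 5%, and every gene is highest at 20%.

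Of the actins, *Acta2* (chr19:34240336-34255585, GRCm38) stood at 1.22, 2.17, 1.39 and 1.30 CPM in the 4 SPONT libraries and at 39.2, 22.9, 11.2 and 9.69 in 1% FBS. It reached 329, 218, 225 and 222 CPM in 5%, 634, 664, 1022 and 887 in 10%, and 2611, 2697, 2789.5 and 1914.5 in 20% FBS. No library of one concentration reached the range of the next. Its log2FC against SPONT was 3.79 (SE 0.45, adjusted p = 0.00029, 13.8-fold) in 1% FBS and 10.65 (SE 0.25, adjusted p = 1e-10, 1607-fold) in 20%. In 1% FBS the spread was wide, and replicates 1 and 2 were above 3 and 4. *Actg2* (chr6:83512909-83536251), the actin of gut and bladder muscle, was near the floor in SPONT with 1–7 counts per library. It held 0.400, 0.596, 0.166 and 0.128 CPM in 5% FBS, all above SPONT, and 2.58, 1.87, 3.91 and 2.56 CPM in 20%. The filter on low counts kept it out of the test at 1 and 5%. At 10 and 20% its serum libraries alone carried it through, which fixes its direction. There it was called in 10% FBS (log2FC 3.91, SE 0.62, adjusted p = 0.00036), and its log2FC was 6.02 (SE 0.45, adjusted p = 5.6e-07) in 20%. Reads shared between near-identical actin genes cannot be told apart in these counts, so small *Actg2* values are uncertain where *Acta2* is high.

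Of the proteins that bind the thin filament, *Tagln* (chr9:45929628-45936058) stood at 0.821, 1.09, 0.899 and 1.29 CPM in SPONT and 25.0, 10.6, 6.30 and 7.65 in 1% FBS. It was at 67.05, 65.0, 60.6 and 47.2 CPM in 5% FBS, 126, 120, 186 and 145 in 10% and 505, 521, 565 and 360 in 20%. Every step was free of overlap. Its log2FC was 3.61 (SE 0.43, adjusted p = 0.00028) in 1% and 8.86 (SE 0.21, adjusted p = 1e-10) in 20% FBS. *Cnn1* (chr9:22099221-22109221) had 0.339, 0.193, 0.280 and 0.442 CPM in SPONT, 1.19, 1.61, 0.962 and 1.26 in 1% FBS and 116, 115, 125 and 66.3 in 20%. Its rise was small at first, with a log2FC of 2.00 (SE 0.29, adjusted p = 0.001) in 1%, and 8.33 (SE 0.28, adjusted p = 1e-09) in 20% FBS. *Cald1* (chr6:34598495-34775469) already stood at 102.002, 61.6, 87.1 and 98.4 CPM in SPONT and at 100.8, 106.98, 81.6 and 100.4 in 1% FBS, which overlapped. It was called from 5% on, where its libraries held 374, 215, 240 and 336.5 CPM, and its log2FC in 20% FBS was 3.07 (SE 0.14, adjusted p = 8.8e-09), the smallest of the 10. *Lmod1* (chr1:135324813-135368065), which seeds new actin filaments, went from 2.81, 3.46, 2.48 and 2.68 CPM in SPONT to 12.3, 13.1, 10.1 and 8.39 in 1% FBS. Its log2FC there was 1.96 (SE 0.18, adjusted p = 6e-05), the smallest adjusted p of the 5 members called in 1% FBS. It stood at 101.1, 115, 104.8 and 76.9 CPM in 20% FBS.

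Of the myosin subunits, *Myl9* (chr2:156775408-156781657) held 43.9, 51.8, 57.4 and 58.6 CPM in SPONT and 80.9, 74.5, 66.9 and 76.3 in 1% FBS. The 2 groups did not overlap, and the log2FC of 0.51 (SE 0.10, adjusted p = 0.0067) was the smallest called. Leaving out any 1 of 6 of the 8 libraries ended that call. In 20% FBS *Myl9* reached 781, 832, 815 and 847 CPM (log2FC 3.91, SE 0.10, adjusted p = 1.9e-10). *Myh11* (chr16:14194527-14292188), the heavy chain used as a marker of mature smooth muscle, stayed low. It had 0.130, 0.257, 0.133 and 0.318 CPM in SPONT, 0.679, 0.413, 0.512 and 0.713 in 5% FBS and 2.55, 3.16, 2.70 and 2.53 in 20%, on 174–240 counts per library. Its call in 5% FBS (log2FC 1.47, SE 0.38, adjusted p = 0.0084) was lost when any 1 of 6 of the 8 libraries was left out, while that in 20% had a log2FC of 3.66 (SE 0.29, adjusted p = 9.4e-07). *Myh11* passed the filter against SPONT through its serum libraries, which fixes the direction of these calls.

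The tropomyosins started from very different levels. *Tpm1* (chr9:67022590-67049672) held 97.1, 123, 100.6 and 101.6 CPM in SPONT and 117, 122.3, 95.9 and 122.5 in 1% FBS, which overlapped. It rose to 533, 371, 499.9 and 531 CPM in 5% and 1104, 1170.1, 1154 and 1059 in 20% FBS (log2FC against SPONT 3.37, SE 0.10, adjusted p = 4.7e-10). *Tpm2* (chr4:43513726-43523583), the beta-tropomyosin of muscle, stood at 0.391, 0.595, 0.472 and 0.373 CPM in SPONT and at 39.1, 39.1, 44.7 and 16.8 in 20% FBS. Its log2FC was 2.36 (SE 0.27, adjusted p = 5.7e-05) in 5% and 6.22 (SE 0.34, adjusted p = 4.5e-08) in 20%. Replicate 4 of 20% FBS was the lowest of its group for *Acta2*, *Tagln*, *Cnn1*, *Tpm1*, *Tpm2*, *Myh11* and *Lmod1*, and it still lay above all 10% libraries for these genes except *Lmod1*.

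The lowest concentration at which a member was called was 1% for 5 genes (*Acta2*, *Tagln*, *Cnn1*, *Myl9* and *Lmod1*), 5% for 4 (*Tpm1*, *Tpm2*, *Myh11* and *Cald1*) and 10% for *Actg2*, which was not tested below that. For *Myh11* and *Actg2* the filter fixed the direction of the call. Without the filter on low counts *Actg2* was called in 5% FBS and *Myh11* was not, and with all groups in 1 fit both were. From 1 to 5% FBS 8 of 9 tested members were higher (17.4% higher and 13.7% lower among 15226 genes), the exception being *Myh11* with a log2FC of 0.32 (95% interval -0.55 to 1.19). *Cnn1* made the largest of these steps (log2FC 3.75, SE 0.25, adjusted p = 2.6e-06). From 5 to 10% FBS 4 of 10 were higher (*Acta2*, *Tagln*, *Myl9* and *Tpm2*), beside 0.869% higher and 0.954% lower among all genes. This count depends on single libraries and on the test: it was 0 without replicate 3 of 5% FBS or replicate 3 or 4 of 10% FBS, 1 without replicate 1 of 10% FBS, 9 by DESeq2 and 8 with all groups in 1 fit, and 9 of 10 members had an unadjusted p under 0.05. Over all genes DESeq2 called 1612 of 15302 and the fit of all groups 2083 of 16307, against 279 by the main test. The share of all genes with an unadjusted p under 0.05 was not counted. From 10 to 20% FBS 7 of 10 were higher (2.12% higher and 2.27% lower among all genes), *Myh11*, *Cald1* and *Lmod1* missing the threshold with log2FC of 1.00, 0.52 and 0.26. Without replicate 1, 2 or 3 of 20% FBS that count was 4. *Tpm2* made the largest step from 10 to 20% (log2FC 2.33, SE 0.27, adjusted p = 0.00071, 5.03-fold), and *Acta2* rose 3.07-fold (SE of log2FC 0.16, adjusted p = 0.00036).

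Over 1 to 20% FBS every member had a positive slope, given here as log2FC for each doubling of the serum concentration. All 10 were called, beside 29.3% of 15874 genes called with a positive slope and 57.3% called in either direction. The call of *Actg2* adds no support, as it passed the filter through its libraries in more serum. *Acta2* was the steepest at 1.59 (SE 0.09, adjusted p = 7.8e-11), a 3.02-fold rise per doubling, followed by *Cnn1* (1.45, SE 0.07), *Tpm2* (1.33, SE 0.12), *Actg2* (1.29, SE 0.14) and *Tagln* (1.19, SE 0.09), the 95% interval of *Acta2* being 1.42 to 1.76 and that of *Tagln* 1.03 to 1.36. *Myl9* (0.81, SE 0.04), *Tpm1* (0.77, SE 0.04), *Lmod1* (0.76, SE 0.06), *Cald1* (0.69, SE 0.05) and *Myh11* (0.58, SE 0.10, adjusted p = 3.1e-05) were shallower. The interval of *Tagln* lay below that of *Acta2* and above that of *Myl9*, 0.73 to 0.89. The median slope of the members was 1.00, and that of all genes 0.0014. Without *Actg2* the middle slope of the members was that of *Myl9*, 0.81.

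Per length, the order of the members changed across the series. On the FPKM scale (CPM per kilobase of exon) SPONT held *Myl9* at 45.5, *Tpm1* at 16.3 and *Cald1* at 7.25, and the other members at 0.724 or less. In 20% FBS *Acta2* came first with 1139.8 FPKM, before *Myl9* (705), *Tagln* (245), *Tpm1* (173), *Cald1* (62.6), *Cnn1* (38.6), *Lmod1* (25.2) and *Tpm2* (12.0), with *Actg2* (1.75) and *Myh11* (0.360) last. As a share of the FPKM of 6 actin genes, *Acta2* was 0.0253 ± 0.00546% in SPONT, 0.432 ± 0.276% in 1%, 4.00 ± 0.562% in 5%, 10.4 ± 2.27% in 10% and 23.95 ± 2.36% in 20% FBS (SD, n = 4). The share of the cytoskeletal *Actb* went from 89.6 ± 1.05% to 69.2 ± 2.48% between SPONT and 20% FBS. *Tagln* took 2.68 ± 0.466% of the transgelins in SPONT, 66.8 ± 2.70% in 5% and 95.1 ± 0.504% in 20% FBS, in place of *Tagln2*, which was at 88.4 ± 3.60% in SPONT. *Myl9* took 35.4 ± 2.72% of the regulatory light chains in SPONT and 80.8 ± 0.517% in 20% FBS, while the share of its non-muscle relative *Myl12b* went from 53.2 ± 2.82% to 7.66 ± 0.316%. *Tpm1* went from 16.9 ± 2.08% to 31.9 ± 0.635% of the tropomyosins and *Tpm2* from 0.164 ± 0.0386% to 2.19 ± 0.712%. *Cnn1* stayed at 4.43 ± 1.03% of the calponins in 20% FBS, behind *Cnn2* (48.1 ± 1.68%) and *Cnn3* (47.5 ± 2.59%). *Myh11* was 0.380 ± 0.0283% of the non-sarcomeric myosin heavy chains in 20% FBS, the rest being *Myh9*, *Myh10* and *Myh14*. *Lmod1* held at least 99.6% of leiomodin FPKM in each mean of the serum series.

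**Figure D3:**
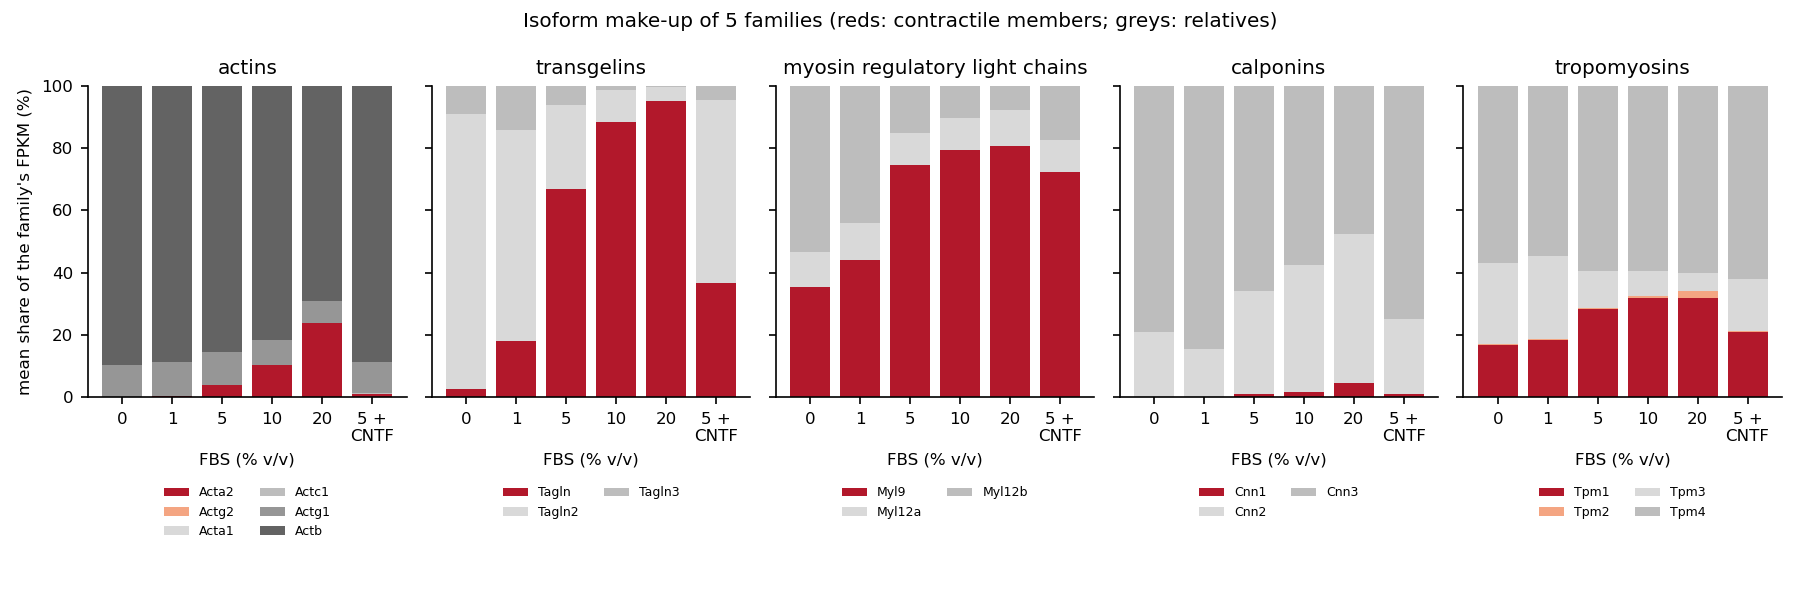
Mean share of each gene in the FPKM of its family (y axis, percent) for 5 families, in SPONT (0), 1, 5, 10 and 20% FBS and in 5% FBS with CNTF (x axis, n = 4 each), with members in red and relatives in grey. *Tagln* goes from 2.68% to 95.1% of the transgelins and *Acta2* from 0.0253% to 23.95% of the actins, and both shares are smaller in 5% FBS with CNTF (36.9% and 1.19%) than in 5% FBS alone.

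Other genes of the contractile and SRF system were counted from lists drawn up by function, with earlier results of these data known. Some genes are in more than 1 list, so the counts are not independent. *Mylk* is among the targets and the regulators, and *Des* among the targets and the mural markers. Of 24 other smooth muscle and SRF target genes, 23 were tested in 20% FBS against SPONT, and 20 were higher and 3 lower. *Fhl2*, a LIM protein, went from 2.80 to 191 CPM (log2FC 6.05, SE 0.24, adjusted p = 3.2e-09), the integrin *Itga1* from 2.21 to 126 and the intermediate filament gene *Des* from 0.0720 to 3.13, while *Svil* fell from 56.0 to 18.2 CPM and *Synpo2* from 65.9 to 36.8. Their slopes were positive in 19 and negative in 3 of 23. Of 13 SRF pathway regulators tested, 9 had positive slopes and 1, *Actr2*, a negative one, where 29.3% of all 15874 genes had positive slopes. The list was not split by whether a regulator raises or lowers SRF targets. *Elk3* (slope 0.48, SE 0.03, adjusted p = 3e-10), *Klf4* (0.46, SE 0.03) and *Srf* itself (0.24, SE 0.03) led these. *Mylk* went from 10.6 CPM in SPONT to 40.8 in 1%, 76.99 in 5% and 67.4 in 20% FBS. *Myocd*, the coactivator that defines smooth muscle, had a mean of 0.0837 CPM in 20% FBS and 0.0686 or less at lower concentrations. Of the non-muscle and striated relatives, 10 of 16 had positive and 4 negative slopes, with *Tpm4* (0.61), *Myl12a* (0.58) and skeletal *Acta1* (0.56, at no more than 0.718 CPM) rising and *Tagln3* (-0.68), *Actc1* (-0.54) and *Tagln2* (-0.24) falling.

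Markers of other cell types were read beside these results. In 20% FBS the mural cell markers *Rgs5* (0.286 CPM), *Abcc9* (0.135) and *Higd1b* (0 counts in all 4 libraries) were at or near 0, while *Pdgfrb* (2.54 CPM in SPONT, 83.1 in 20% FBS) and *Des* were higher and *Cspg4*, *Vtn*, *Kcnj8* and *Ndufa4l2* lower, so that 2 of 8 tested markers were higher and 4 lower. The summed level of the 10 mural markers was 278–337 CPM in SPONT and 180.5–215 in 20% FBS. Of 7 fibroblast markers 5 were higher and 2 missed the threshold in 20% FBS. *Col1a1* was at 4.65 CPM in SPONT and 321.5 in 20% FBS and *Dcn* at 0.425 and 65.4, whereas *Col1a2*, the partner chain of type I collagen, was at 0.586 and 0.483 CPM. Their sum ranged over 12.1–14.7 CPM in SPONT and 434–526 in 20% FBS. The endothelial markers *Cdh5*, *Cldn5* and *Pecam1* had means of no more than 0.0886 CPM in 20% FBS. Of the 8 endothelial markers 3 were tested, and all 3, *Kdr* (61.9 CPM), *Flt1* (3.61) and *Tek* (0.645), were higher than in SPONT. Myeloid markers summed to no more than 5.95 CPM in SPONT and 4.98 in 20% FBS, and 1 of 4 tested was higher. Of the skeletal muscle markers 2 of 5 were higher and 2 lower, none of the 8 above 0.718 CPM in 20% FBS. Lower in 20% FBS were 3 of 4 astrocyte markers (*Gfap*, 7880 CPM in SPONT and 4017 in 20% FBS, *Aqp4* and *S100b*), 4 of 4 neural progenitor markers and 2 of 3 oligodendrocyte lineage markers. The 1 ESC marker tested was not called. The part of these markers in the members' rise was not tested.

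With 5% FBS 6 members were lower in the presence of CNTF, and without serum 3 were higher. The question is whether this astrocyte-inducing cytokine counters serum. Without serum, 3 of 8 tested members were higher with CNTF than in SPONT and none lower, where 10.8% of 14879 genes were higher and 9.15% lower. *Cnn1* stood at 1.20, 1.75, 1.28 and 1.45 CPM with CNTF, against 0.193–0.442 in SPONT (log2FC 2.19, SE 0.27, adjusted p = 0.00013, 4.55-fold). *Lmod1* was at 4.90, 5.60, 5.37 and 5.63 CPM (log2FC 0.93, SE 0.14, adjusted p = 0.00054) and *Myl9* at 83.3, 87.6, 91.8 and 82.1 CPM (log2FC 0.73, SE 0.09, adjusted p = 0.00018). *Acta2*, at 2.16, 2.14, 1.97 and 2.79 CPM, overlapped SPONT (log2FC 0.60, 95% interval 0.16 to 1.03, adjusted p = 0.062). Without SPONT replicate 2, the highest of that group for *Acta2*, *Acta2* was also called as higher and *Cald1* as lower, and the count was 5. *Tpm2* was lower in every CNTF library (0.109–0.240 CPM) than in SPONT but missed the threshold (log2FC -1.29, SE 0.33, adjusted p = 0.012). The median log2FC of the members was 0.66, and that of all genes -0.013.

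With 5% FBS, 6 of 9 tested members were lower with CNTF and none higher, where 11.3% of 15272 genes were higher and 12.0% lower. *Acta2* stood at 59.5, 58.0, 68.9 and 70.7 CPM with CNTF and 329, 218, 225 and 222 without. All 4 CNTF libraries were below the lowest 5% FBS library, with a fitted level 4.07-fold lower (log2FC -2.03, SE 0.13, adjusted p = 1.1e-05). *Tagln* was at 19.95, 19.02, 19.96 and 25.2 CPM, 3.00-fold lower (log2FC -1.59, SE 0.12, adjusted p = 2.2e-05). *Myh11* was at 0.155–0.278 CPM against 0.413–0.713, on 11–22 counts per library with CNTF (log2FC -1.47, SE 0.31, adjusted p = 0.0043). *Lmod1* (log2FC -0.94, SE 0.17, adjusted p = 0.002), *Tpm1* (-0.70, SE 0.10, adjusted p = 0.00076) and *Myl9* (-0.30, SE 0.06, adjusted p = 0.0027) were lower by less. *Tpm2* missed the threshold (-0.83, SE 0.22, adjusted p = 0.015) although its 4 CNTF libraries, at 0.974–1.67 CPM, lay below the 4 others. *Actg2*, too low to be tested, had 2–5 counts per library with CNTF and 9–39 without. *Cald1* (-0.33, 95% interval -0.65 to -0.02) and *Cnn1* (0.27, 95% interval -0.11 to 0.64) overlapped, with *Cnn1* at 20.5, 20.0, 20.2 and 24.9 CPM with CNTF and 25.4, 13.9, 14.1 and 14.1 without. Without replicate 1 of 5% FBS *Cnn1* was called as higher with CNTF (log2FC 0.55, adjusted p = 0.0015). The call of *Myh11* was lost without replicate 1 or 4 of 5% FBS or replicate 1, 3 or 4 of CNTF with 5% FBS, and that of *Myl9* without replicate 1, 2 or 4 of the latter. The members' median log2FC was -0.83, and that of all genes -0.015. With raw library totals in place of TMM scaling, the split over all genes moved from 1725 higher and 1839 lower to 2331 and 1077, and 5 members were lower.

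The CNTF effect itself differed with serum for 6 of 9 members, all with a lower effect in 5% FBS, where 10.3% of 15726 genes had a higher and 12.6% a lower one. This interaction was -2.65 for *Acta2* (SE 0.25, adjusted p = 6.4e-07), -2.36 for *Tagln* (SE 0.25, adjusted p = 2.6e-06), -1.92 for *Cnn1* (SE 0.32, adjusted p = 0.00027) and -1.88 for *Lmod1* (SE 0.22, adjusted p = 8.3e-06). It was -1.03 for *Myl9* (SE 0.11, adjusted p = 3.8e-06) and -0.68 for *Tpm1* (SE 0.15, adjusted p = 0.002). *Tpm2* (0.44, 95% interval -0.29 to 1.18), *Myh11* (-0.44, -1.58 to 0.71) and *Cald1* (-0.08, -0.51 to 0.35) were not called. With raw totals the split over all genes moved from 1616 higher and 1984 lower to 2236 and 1384, and the same count of members, 6, was called. The family shares followed, *Acta2* being 1.19 ± 0.0946% of the actins with CNTF and 5% FBS and *Tagln* 36.9 ± 2.40% of the transgelins, whereas *Cnn1* was 1.13 ± 0.106% of the calponins, against 0.918 ± 0.274% in 5% FBS. Of the other smooth muscle and SRF targets 10 of 23 were lower with CNTF in 5% FBS and none higher, among them *Mylk* (-0.87, SE 0.14) and *Svil* (-0.94, SE 0.16). Of the regulators 4 of 13 were lower, *Klf4* (-1.25, SE 0.16, adjusted p = 0.00038), *Mylk*, *Srf* (-0.46, SE 0.11, adjusted p = 0.0082) and *Mrtfa*, and 2 higher, *Elk4* and *Actr2*. *Mylk* is counted in both lists. Of the relatives 7 of 16 were lower and 2 higher, with *Cnn2* at -0.48 (SE 0.06) and *Myh9* at -0.55 (SE 0.11). Fibroblast markers were lower in 5 of 7, with sums of 21.6–26.5 CPM against 235–768 in 5% FBS. Their part in the members' fall was not tested.

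**Figure D4:**
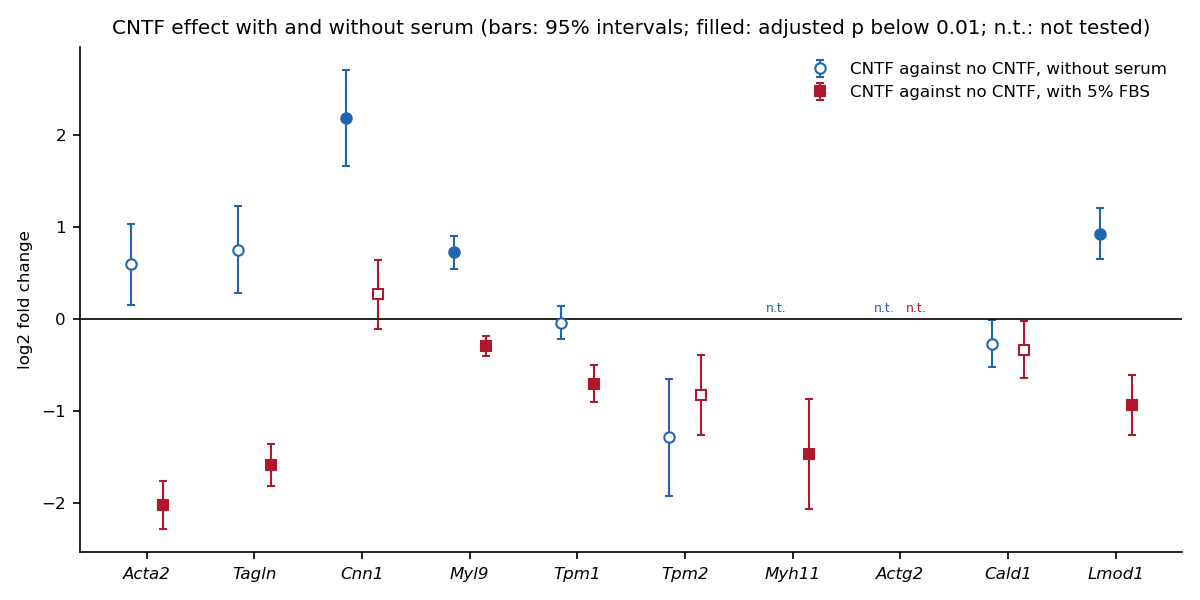
Log2 fold change with CNTF against without (y axis) for each gene (x axis), in medium without serum (blue circles) and with 5% FBS (red squares), n = 4 per group. Bars are 95% intervals by the normal quantile, filled points have an adjusted p below 0.01 and n.t. marks genes not tested. *Acta2* is at 0.60 without and -2.03 with serum, and *Cnn1* is at 2.19 without and 0.27 with serum.

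Among the graft groups 8 members had their highest mean at 5 d in SCI, the exceptions being *Myh11* (uninjured cord at 14 d) and *Lmod1* (dSCI at 14 d). Between 5 d and 14 d in SCI the called members were *Acta2*, *Tagln*, *Tpm2*, *Tpm1* and *Actg2*. The 5 d grafts are single-read and the 14 d grafts paired-read libraries, so time and read type cannot be told apart. Of 9 tested members other than *Actg2* 4 were lower at 14 d and none higher, where 2.72% of 15314 genes were higher and 2.58% lower. *Acta2* stood at 367, 329.5, 636, 104.7 and 117 CPM at 5 d and at 48.98, 31.4, 44.6, 23.97 and 14.5 at 14 d (log2FC -3.10, SE 0.48, adjusted p = 0.0016, 8.57-fold lower), with no overlap. *Tagln* was at 379, 182, 436, 114 and 60.9 CPM and then 48.98, 15.3, 45.3, 41.8 and 36.7 (log2FC -2.46, SE 0.50, adjusted p = 0.0072). *Tpm2* was at 50.8, 28.5, 54.9, 35.5 and 19.8 CPM at 5 d and at 5.16–9.48 at 14 d (log2FC -2.22, SE 0.31, adjusted p = 0.00089). *Tpm1* was at 246–544 and 115–190.02 CPM (log2FC -1.03, SE 0.21, adjusted p = 0.0066). *Actg2* was at 3.99, 1.14, 6.68, 1.48 and 0.779 CPM at 5 d and had 0 counts in all 5 libraries at 14 d. These 0 counts set no limit on the size of its fall, as single graft libraries can lack a gene that others of their group hold. In grafts in uninjured cord *Actg2* was at 1.96 and 0.665 CPM in replicates 2 and 5 and at 0 in the others. *Actg2* passed the filter through the 5 d libraries alone, which fixes its direction, so its call is left out of the 4 above. *Cnn1* was also lower in each 14 d library (0.0393–2.74 CPM against 2.90–21.7) but missed the threshold (log2FC -2.76, SE 0.79, adjusted p = 0.038). *Myl9*, *Cald1*, *Lmod1* and *Myh11* overlapped, *Myh11* with 0–3.61 CPM at 5 d and 0–3.85 at 14 d. The members' median log2FC was -1.64 with *Actg2* counted in, and that of all genes -0.00046. Without *Actg2* the middle value of the members was that of *Myl9*, -1.06. With raw totals the median of all genes was -0.17 and the split over all genes moved from 416 higher and 395 lower to 268 and 550, with 5 members lower, *Actg2* included. The count of members called, *Actg2* included, was 5 in all, 3 when any 14 d library or replicate 2 of 5 d was left out, 2 without replicate 1 or 3 of 5 d, 6 without replicate 4 of 5 d, where *Myl9* was also called, and 3 with all groups in 1 fit.

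At 5 d the members differed in order from the serum cultures. Per length, *Acta2* (142 FPKM), *Tagln* (118), *Myl9* (98.3) and *Tpm1* (55.5) led, followed by *Cald1* (17.8) and *Tpm2* (13.0), while *Lmod1* was at 1.09 FPKM, against 12.8 in 5% FBS. *Acta2* was 7.27 ± 4.97% of the actins and *Tagln* 44.6 ± 22.8% of the transgelins at 5 d (n = 5), and 0.837 ± 0.301% and 16.8 ± 5.28% at 14 d. The other smooth muscle targets gave 3 of 24 lower at 14 d, *Csrp2* (log2FC -3.46, SE 0.46), *Fhl2* (-1.95, SE 0.34) and *Pdlim7* (-1.38, SE 0.27), and none higher. Of the regulators *Elk3* was lower and *Rock1* higher, and of the relatives *Tpm4* was lower and *Myh14* higher.

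Among the 14 d grafts, injury by a single crush gave no member that passed the test against uninjured cord. Called were 0 of 9 by edgeR, 0 by DESeq2, and 1 (*Myh11*) had an unadjusted p under 0.05 by either, where 2.09% of 15813 genes were higher and 2.55% lower in SCI by edgeR. DESeq2 called 1917 of the 15813. With raw totals the median of all genes was -0.32, and 174 genes were higher and 1203 lower in place of 330 and 404. *Acta2* was at 22.7, 65.7, 22.4, 99.4 and 27.1 CPM in uninjured cord, overlapping SCI (log2FC -0.30, 95% interval -1.11 to 0.52). *Myh11* was at 7.04, 13.1, 3.80, 22.7 and 6.22 CPM in uninjured cord and 1.09, 0.752, 0, 1.06 and 3.85 in SCI, with 1 SCI library inside the uninjured range (log2FC -2.58, SE 0.99, adjusted p = 0.10). These uninjured libraries and those in dSCI held the most *Myh11* of the series, 2.04 ± 1.21% and 2.07 ± 0.638% of the non-sarcomeric heavy chains. *Myocd* also had its highest means in these grafts, 0.768 and 0.482 CPM. *Tpm2* was at 0 counts in replicate 3 of uninjured cord and at 13.8–30.6 CPM in the other 4. *Actg2* had counts in 2 of 5 uninjured libraries and in 3 of 5 in dSCI.

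In dSCI *Tagln* was the 1 member called. It stood at 137.5, 108.3, 113, 171.6 and 62.4 CPM in dSCI, above the 16.3–48.4 of uninjured cord and the 15.3–48.98 of SCI. Its log2FC was 2.09 (SE 0.31, adjusted p = 0.0019, 4.25-fold) against uninjured cord, where 1 of 10 members was called and 2.55% of 15906 genes were higher and 1.64% lower, and 1.57 (SE 0.29, adjusted p = 0.0081, 2.97-fold) against SCI, where 1 of 9 was called and 1.29% of 15790 genes were higher and 0.538% lower. The call against SCI was lost without any 1 of replicates 1 to 4 of either group, and with all groups in 1 fit. DESeq2 called 2 members against uninjured cord and 3 against SCI, and 5 and 9 members had an unadjusted p under 0.05 by edgeR. Over all genes DESeq2 called 1731 of 15906 and 1274 of 15790, against 666 and 289 by edgeR. The share of all genes with an unadjusted p under 0.05 was not counted. *Acta2* was at 86.7, 85.4, 70.1, 50.2 and 57.4 CPM in dSCI, all above SCI (log2FC 1.08, SE 0.27, adjusted p = 0.023) and overlapping uninjured cord. *Cnn1* was at 3.40–12.1 CPM in dSCI, above all SCI libraries (log2FC 2.07, 95% interval 0.52 to 3.62), and *Myh11* at 4.98–13.8, above them as well (log2FC 2.60, 0.76 to 4.44), neither of them called. The members' median log2FC was 0.79 against uninjured cord and 1.30 against SCI, beside -0.017 and 0.035 for all genes. With raw totals the split against uninjured cord moved from 405 higher and 261 lower to 235 and 610. Both dSCI comparisons share the dSCI libraries.

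**Figure D5:**
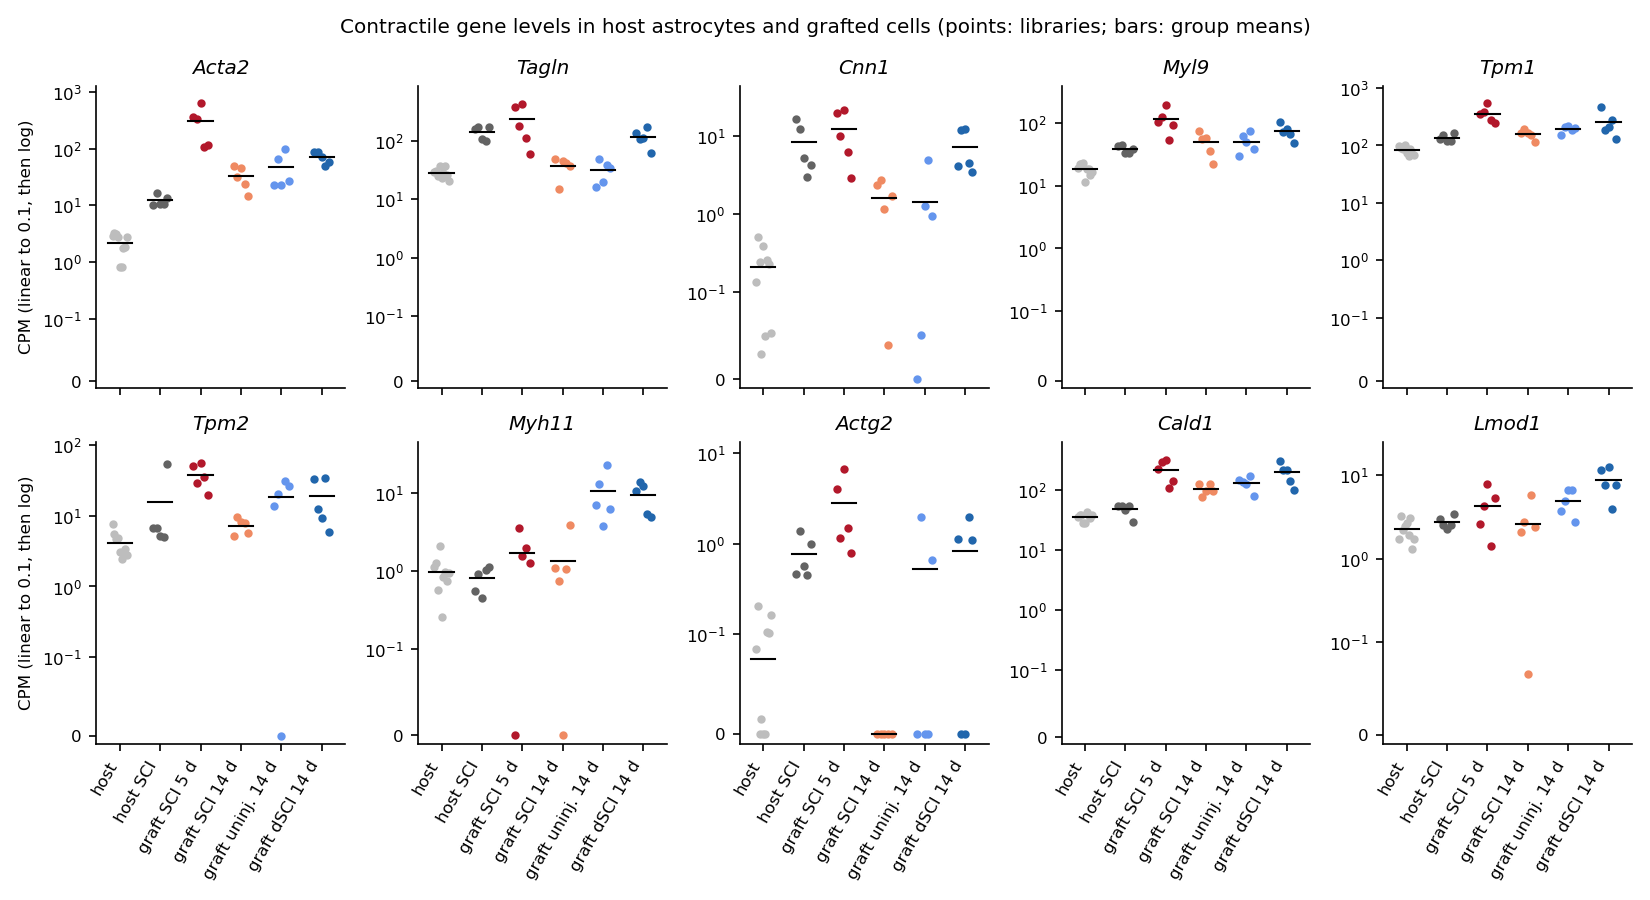
CPM of each gene (y axis, linear up to 0.1 and logarithmic above) in host astrocytes of healthy cord (n = 9) and 14 d after SCI and in grafts in SCI at 5 d and in SCI, uninjured cord and dSCI at 14 d (n = 5 each), with 1 point per library and a bar at the mean. *Acta2* at 5 d (104.7–636 CPM) lies above all 14 d grafts (14.5–99.4 CPM), and *Actg2* is at 0 in every 14 d graft in SCI.

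Markers of other cell types were also read in the grafts. The 7 fibroblast markers summed to 5879–17592 CPM at 5 d (median 6803), 1045–3890 (1535) at 14 d in SCI, 1725–4454 (3119) in uninjured cord and 7179–27666 (11435) in dSCI. Of these, *Lum* and *Col1a1* were lower at 14 d than at 5 d, and 5 of 7, *Dcn*, *Lum*, *Col1a1*, *Col1a2* and *Col3a1*, were higher in dSCI than in SCI. The 10 mural markers summed to 540–786, 374–473, 470–1226 and 411–2136 CPM in the same order, with *Pdgfrb* and *Notch3* lower and *Cspg4* higher at 14 d than at 5 d and *Pdgfrb* and *Vtn* higher in dSCI than in SCI. *Rgs5* had means of 4.57 CPM at 5 d, 1.07 in SCI at 14 d, 23.2 in uninjured cord and 13.5 in dSCI. The 8 endothelial markers summed to 23.7–318, 27.7–82.6, 51.2–416 and 77.1–727 CPM, and 4 of 8 were higher in dSCI than in SCI. The 8 myeloid markers summed to 674–15335, 526–1790, 197–1427 and 1029–10950 CPM, with 3 of 8 higher in dSCI than in uninjured cord. Replicate 4 of 5 d held the highest endothelial (318 CPM) and myeloid (15335 CPM) sums of its group and the lowest *Acta2*. No fibroblast marker was at 0 in a graft group mean. The part of other cell types in the members' values was not tested.

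Host astrocytes carried little of the set in healthy cord, with 175.2 ± 22.5 CPM summed over the 10 genes (n = 9), and 407 ± 72.9 after SCI (n = 5). These groups were described and not tested. *Tagln* was at 20.5–38.001 CPM (median 28.2) in healthy cord and 158.3, 176.8, 108.0, 100.3 and 174.6 after SCI. *Cnn1* was at 0.0287–0.506 CPM (median 0.226) and then 16.5, 12.3, 5.20, 2.94 and 4.30, and *Acta2* at 0.797–3.18 (median 2.70) and then 9.96, 16.5, 10.5, 10.5 and 13.4. For these genes every SCI library lay above the healthy ones. *Lmod1* and *Myh11* overlapped. *Tpm2* was at 5.04–6.66 CPM in 4 SCI libraries and at 53.7 in replicate 5, whose skeletal muscle markers summed to 161 CPM, against 5.27–7.62 in the other 4. Fibroblast markers summed to 133–238 CPM in healthy cord and 606–1426 after SCI, and myeloid markers to 16.9–34.04 and 285–2132. *Tagln3*, a neuronal relative of *Tagln*, made 97.2 ± 0.308% of the transgelin FPKM of healthy host astrocytes.

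The genes whose group means were most like those of *Acta2* were taken by Pearson's r of log2(CPM + 1) among genes that reached 10 CPM in the mean of 1 group or more. Over the 23 groups, which share the cell line and the 2 read types, these were *Ccn4* (0.959), *Ltbp2* (0.959), *Omd* (0.957), *Lox* (0.946) and *Fhl2* (0.943) of 13133 genes. *Lox*, which crosslinks collagen, was at 0.286 CPM in SPONT, 182.8 in 20% FBS, 56.5 in 5 d grafts and 14.8 in 14 d grafts in SCI, and at 46.4 in 5% FBS against 2.90 with CNTF. Of the members, *Cnn1* (0.929), *Tpm1* (0.927), *Tagln* (0.8985), *Lmod1* (0.877) and *Myl9* (0.836) were closer than *Cald1* (0.749), *Myh11* (0.593) and *Tpm2* (0.478). Over the 5 serum groups alone the highest were *Cish* (0.9998), *Arfgef2*, *Cavin1*, *Cd302* and *Pde3a* (0.999 each) of 10362 genes, with only 5 points behind each value. By Spearman's rho the first 5 genes that are not members over the 23 groups were *Pla2g15*, *Col8a1*, *Clcf1*, *Tctn1* and *Smad6* (0.931–0.905), none of them among the first 5 by Pearson's r, and over the serum groups 1429 genes tied at 1.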

How the data were processed

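Ribosome-bound RNA was read in all libraries after pulldown of the HA-tagged Rpl22. Per the study's methods, in Galaxy the authors used Trimmomatic for trimming, HISAT2 for alignment (genome mm10) and featureCounts to assign reads to Entrez genes, and they deposited the raw counts for each library, unnormalized. The files held 0 columns of other samples.

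Of 27179 genes, 25275 took a RefSeq symbol and 21572 a GENCODE M21 exon length. CPM was computed from library totals, and FPKM as CPM per kilobase of exon. Groups were taken from the labels. Tests were edgeR 4.0.16 quasi-likelihood F tests (R 4.3.3, TMM scaling, filterByExpr with a minimum count of 10), fitted for each comparison on its own groups, with Benjamini-Hochberg adjustment over all genes tested and calls at an adjusted p below 0.01. Standard errors are the size of the log2FC over the square root of F and include the spread between libraries. Intervals called 95% take the normal quantile times this standard error, so with few libraries they are too narrow. An interval that leaves out 0 can have an unadjusted p above 0.05 by the F test, as for *Cald1* with CNTF in 5% FBS. The slope was fitted on log2 of the FBS concentration. Every adjusted p in the text is from these fits, or from the same fit without the library named beside it. On simulated data the fits recovered 196 of 200 genes changed by 2 log2 units with 3 false calls for 5% against 1% FBS (15067 genes), 193 with 4 false calls for the CNTF interaction (15541 genes) and 137 with 1 false call for 14 d against 5 d grafts (14765 genes), and 200 of 200 slopes of 1 with 2 false calls (15712 genes). Only genes with a mean count above 50 were changed, so recovery at lower counts was not simulated.

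The members and gene lists were chosen with earlier results of these data known. From each list up to 3 genes a direction were named, by size of change, where a group mean reached 10 CPM, and others named were chosen after their values were seen. Alternatives were DESeq2 1.42.0, its size factors, no filter on low counts, a minimum count of 50, the replicate number as a block, all groups in 1 fit, leaving out each library, and raw library totals, the last chosen after seeing the data. A library was marked as apart by Dixon's ratio. Host groups were not tested. Tables and figures used Python 3.11.15, pandas 2.3.3 and matplotlib 3.10.9.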

Additional observations from a re-analysis of the deposited data

Results flagged for a closer look

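The effect of CNTF differed between cultures with 5% FBS and cultures without serum for 6 members, by the edgeR interaction test. The effect with serum minus the effect without, in log2FC, was -2.65 for *Acta2*, -2.36 for *Tagln*, -1.92 for *Cnn1*, -1.88 for *Lmod1*, -1.03 for *Myl9* and -0.68 for *Tpm1*.

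In 14 combinations of a member and a group of 4 to 9 libraries, which are 7.22% of those examined, 1 library stood apart from the rest by Dixon's ratio at the 95% level, where chance marks about 1 in 20. Combinations with a mean count under 10 were not examined. Replicate 1 of 5% FBS was high for *Acta2* (328.6 CPM, others 217.7–224.6) and for *Cnn1* (25.4 CPM, others 13.87–14.12). Replicate 4 of CNTF with 5% FBS was high for *Tagln* (25.21 CPM, others 19.02–19.96) and *Cnn1* (24.93 CPM, others 19.97–20.55), and replicate 1 of that group was low for *Lmod1* (24.5 CPM, others 28.82–29.17). For *Acta2*, replicate 2 of SPONT (2.171 CPM), replicate 3 of IGF-1 (1.359 CPM) and replicate 4 of NPC passed through a pipette in medium (0.7708 CPM) were the highest of their groups. *Cnn1* was at 4.907 CPM in replicate 4 of the grafts in uninjured cord, with the others at 1.267 or less. *Myh11* was at 3.851 CPM in replicate 5 of the 14 d grafts in SCI, with the others at 1.086 or less. *Tpm2* was at 53.69 CPM in replicate 5 of host astrocytes after SCI, with the others at 6.661 or less. *Myl9* was at 5.852 CPM in replicate 1 of the 4 h DCH pipette group. *Tpm1* was lowest in replicate 1 of NPC P15 (80.64 CPM) and *Cald1* in replicate 3 of ESC (16.63 CPM).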

How the results depend on the processing

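Of the log2FC of single members under the alternatives, 2183 kept their direction and their side of the threshold, 92 lost a call, 28 gained one and 28 changed sign, and 215 counts of members called stayed within 1.5 times the main count while 34 did not. From 5 to 10% FBS 4 members were called, and 9 by DESeq2, 8 with the replicate block and 8 with all groups in 1 fit, and 0 to 5 when 1 library was left out. From 10 to 20% FBS the count was 4 to 7 with 1 library left out, and for CNTF against SPONT 3 to 5. For grafts in SCI at 14 d against 5 d the count of 5 was 2 with the replicate block, 3 with all groups in 1 fit and 2 to 6 with 1 library left out. For dSCI against uninjured cord the count of 1 was 2 by DESeq2 and 0 with the replicate block. For dSCI against SCI the count of 1 was 3 by DESeq2, 0 with the replicate block, 0 with all groups in 1 fit and 0 to 1 with 1 library left out. With raw library totals 3 uncalled values changed sign, *Cald1* in the CNTF interaction (0.031), *Myl9* in SCI against uninjured cord (-0.029) and *Myh11* in dSCI against uninjured cord (-0.165). With 1 library left out, uncalled log2FC crossed 0 and ranged from -0.007 to 0.618 for *Myh11* in 5% against 1% FBS, from -0.081 to 0.062 for *Tpm1* in CNTF against SPONT, from -0.198 to 0.062 for *Cald1* in the interaction and from -1.069 to 0.438 for *Myh11* in 14 d against 5 d grafts. In SCI against uninjured cord they ranged from -0.487 to 0.144 for *Acta2*, from -0.111 to 0.001 for *Tpm1* and from -0.176 to 0.061 for *Cald1*, and in dSCI against uninjured cord from -0.109 to 0.454 for *Tpm2* and from -0.206 to 0.484 for *Myh11*. The cause was not tested. Same-numbered libraries share only a number in the labels, and in no comparison were all pairs correlated above 0.1 in their deviations (-0.183 to 0.256 in 1% FBS against SPONT, 0.022 to 0.391 in 10% against 5% FBS). Over all genes the block moved the calls from 279 to 1412 in 10% against 5% FBS, from 673 to 93 in 20% against 10%, from 811 to 269 in 14 d against 5 d grafts, from 666 to 35 in dSCI against uninjured cord and from 289 to 0 in dSCI against SCI. DESeq2 called 1612 genes in 10% against 5% FBS, 1731 in dSCI against uninjured cord and 1274 in dSCI against SCI. All groups in 1 fit gave 2083 in 10% against 5% FBS, 892 in 14 d against 5 d grafts and 209 in dSCI against SCI. Depth limited *Actg2*, whose counts were too few for a test in 1 and 5% FBS against SPONT and in both CNTF comparisons.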
